A study of Mus musculus with 12 samples.

Results

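Glycolysis and the transport of glucose and lactate were followed through 32 genes: 3 glucose transporters, 3 hexokinases, 7 enzymes between glucose-6-phosphate and triose phosphate, 2 fructose-2,6-bisphosphate enzymes, 6 enzymes from triose phosphate to pyruvate, 2 lactate dehydrogenases and 2 lactate transporters, 4 genes of pyruvate dehydrogenase and its control, and 3 genes of the HIF pathway. The genes were named as a list, and their probes were found through the RefSeq transcript each probe was designed on. All 32 were on the array and passed the filter on dim probes, among 20862 genes tested, and the probe used for each was well above background on all 12 arrays. The cells were macrophages from the peritoneum of wild type C57BL/6 mice aged 8 weeks, kept as the cells that stayed attached to the dish. They fell into 3 groups of 4 arrays. The first had received IL4 at 10 ng/ml together with emodin, a plant anthraquinone, at 50 µM. The second had received IL4 at 10 ng/ml alone, and the third the vehicle. Replicates 1 and 2 of every group came from female mice and replicates 3 and 4 from male mice. Sample descriptions state a treatment of 6 h, whereas the treatment protocol describes an overnight stimulation, and the series' design text names blood cells instead of peritoneal macrophages. The labels do not say whether mice were pooled or what was separate between replicates, so a p-value here reflects only how much these samples varied, some of which may be technical. Emodin without IL4 was not analysed here.

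As background, glycolysis turns glucose into pyruvate in the cytosol. Hexokinases trap the sugar, phosphofructokinase commits it, and the bifunctional PFKFB enzymes set the level of fructose-2,6-bisphosphate, the main activator of phosphofructokinase. Pyruvate either enters the mitochondria through pyruvate dehydrogenase, which the PDK kinases switch off, or is reduced to lactate and carried across the membrane by monocarboxylate transporters. The transcription factor HIF1, whose alpha subunit is encoded by Hif1a, is known to drive many of these genes, and the prolyl hydroxylases of the EGLN family mark that subunit for degradation. Inflammatory macrophages are known for high glycolysis with lactate release, and macrophages activated by IL4 for oxidative metabolism with glucose uptake.

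RNA was labelled with the dye Cy3 and read on Agilent arrays, 1 sample per array. Values are log2 intensity minus the log2 of each array's 75th percentile, so a value of 0 is that percentile, and a difference of 1 is 2-fold. The 75th percentile was 447 to 516 intensity units on arrays of IL4 with emodin, 761 to 813 on IL4 arrays and 633 to 810 on control arrays. The emodin arrays occupied a slide of their own, scanned apart from the slide that held the IL4 and control arrays, and the effects of slide and of emodin cannot be told apart. IL4 arrays took row 1 of the slide and control arrays row 2, so row and IL4 cannot be told apart either. Scaling to the spike-in RNA that the arrays' control probes measure, in place of the 75th percentile, moved every difference between emodin and IL4 arrays by -1.08 and every difference between emodin and control arrays by -0.98, against 0.09 between IL4 and control arrays. Rises on emodin arrays are therefore relative to the rest of the RNA. Of 7 macrophage markers, 6 matched a probe, and these were well above background on all 12 arrays. Summed linear intensity relative to the 75th percentile of 4 markers of large peritoneal macrophages was 3.13 to 4.12 with emodin, 7.77 to 9.32 with IL4 and 8.14 to 8.40 in control cells. Icam2 carried that difference, at a mean of 1.14 with emodin, 2.73 with IL4 and 2.88 in control cells, whereas Gata6 was at 0.34, 0.54 and -0.38 and Timd4 at -3.36, -3.39 and -3.62 in those groups. For 7 measured neutrophil markers the sums were 142 to 173 with emodin, 111 to 124 with IL4 and 108 to 130 in control cells, with Ngp below background on all 12 arrays. Csf3r, at means of 6.82, 6.57 and 6.43 in those groups, and Elane, at 5.20, 3.94 and 4.31, carried these sums, whereas S100a8 was at 2.67, 2.96 and 3.41. Of 3 eosinophil markers, Epx and Prg2 were below background on all 12 arrays and Siglecf above it, and the sums were 0.762 to 0.837 with emodin, 0.540 to 0.823 with IL4 and 1.18 to 1.31 in control cells. Of 4 T cell markers, Cd3d and Cd3g were below background on all 12 arrays and Cd3e and Cd2 above it. Their sums were 2.89 to 5.83 with emodin, 1.98 to 3.48 with IL4 and 4.23 to 4.86 in control cells. Cd3e was at a mean of 1.93 with emodin, 0.90 with IL4 and 1.85 in control cells. Cd2 did not follow it, at -0.48, -0.13 and -0.10 in those groups. The B cell marker Cd79b was at a mean of -1.82 with emodin, 0.35 with IL4 and 0.22 in control cells. Sums of 4 mast cell markers were 0.711 to 1.72 with emodin, 0.486 to 1.57 with IL4 and 0.461 to 1.43 in control cells, and those of 5 mesothelial and fibroblast markers 6.01 to 25.2, 5.43 to 26.4 and 4.73 to 16.0 in those groups. Erythroid Alas2 was below background on all 12 arrays, whereas erythroid Hba-a1 was well above it on 1 emodin, 4 IL4 and 2 control arrays. In these bulk samples fewer cells of a type and less RNA per cell cannot be told apart, and the part of these shifts in the results was not tested.

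Between arrays of IL4 with emodin and of IL4 alone, some gene families of the pathway held genes that differed in opposite directions. No ratio between hexokinases, between phosphofructokinases or between the lactate dehydrogenases was called in this comparison. The emodin arrays were on a slide of their own, so differences between these groups cannot be told apart from those of the slide. Lactate transporter Slc16a1, regulator Pfkfb3 and Hif1a were higher than with IL4 alone, while Pfkfb4, glucose transporter Slc2a6, lactate exporter Slc16a3 and kinase Pdk1 were lower. The 4 falls held under every scaling tried, and the 3 rises held under 75th percentile and quantile scaling but not under spike-in scaling. Among the 32 members, 12 passed as higher and 6 as lower (limma, Benjamini-Hochberg adjusted p below 0.05 over all genes), and 14 passed in neither direction. Over all genes, 39.4% passed as higher and 26.5% as lower, so the members' share, 18 of 32 in either direction against 65.9%, did not stand above the background. At 2-fold or more, 2 members were higher and 4 lower, with 8.47% and 9.87% of all genes called at that size (18.3% in either direction). The members' median difference was 0.15, beside 0.17 for all genes.

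With IL4 alone, hexokinase Hk2 was raised most over control, and the phosphofructokinase genes Pfkp and Pfkl differed in opposite directions. Among the 32 members, 6 passed as higher (Hk2, Pfkp, Pfkfb4, Slc2a1, Slc2a6 and Hk3) and 8 as lower (Aldoc, Pfkl, Slc2a3, Eno1, Pdk1, Slc16a3, Tpi1 and Ldhb) than in control cells, with 18 in neither direction. Over all genes, 8.98% passed as higher and 8.56% as lower, 17.5% in all. Hk2 was the only member called at 2-fold or more, where 2.72% of all genes were called higher and 1.23% lower (3.95% in either direction). The groups did not overlap for 17 members, beside 24.9% of all genes. The median difference was -0.04 for members and -0.03 for all genes.

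For IL4 with emodin against control, 14 members were called higher and 8 lower, beside 37.3% and 25.6% of all genes (62.9% in either direction). Of these, 3 were higher and 3 lower by 2-fold or more, where 7.82% and 8.83% of all genes were called (16.7% in either direction). The groups did not overlap for 19 members against 54.3% of all genes, and for 18 members against 60.4% in the comparison of emodin with IL4. The median difference from control was 0.24 for members and 0.15 for all genes. This comparison shares its emodin arrays with the comparison to IL4 and its control arrays with the IL4 comparison, so their values stand side by side below and are not independent of each other.

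**Figure D1:**
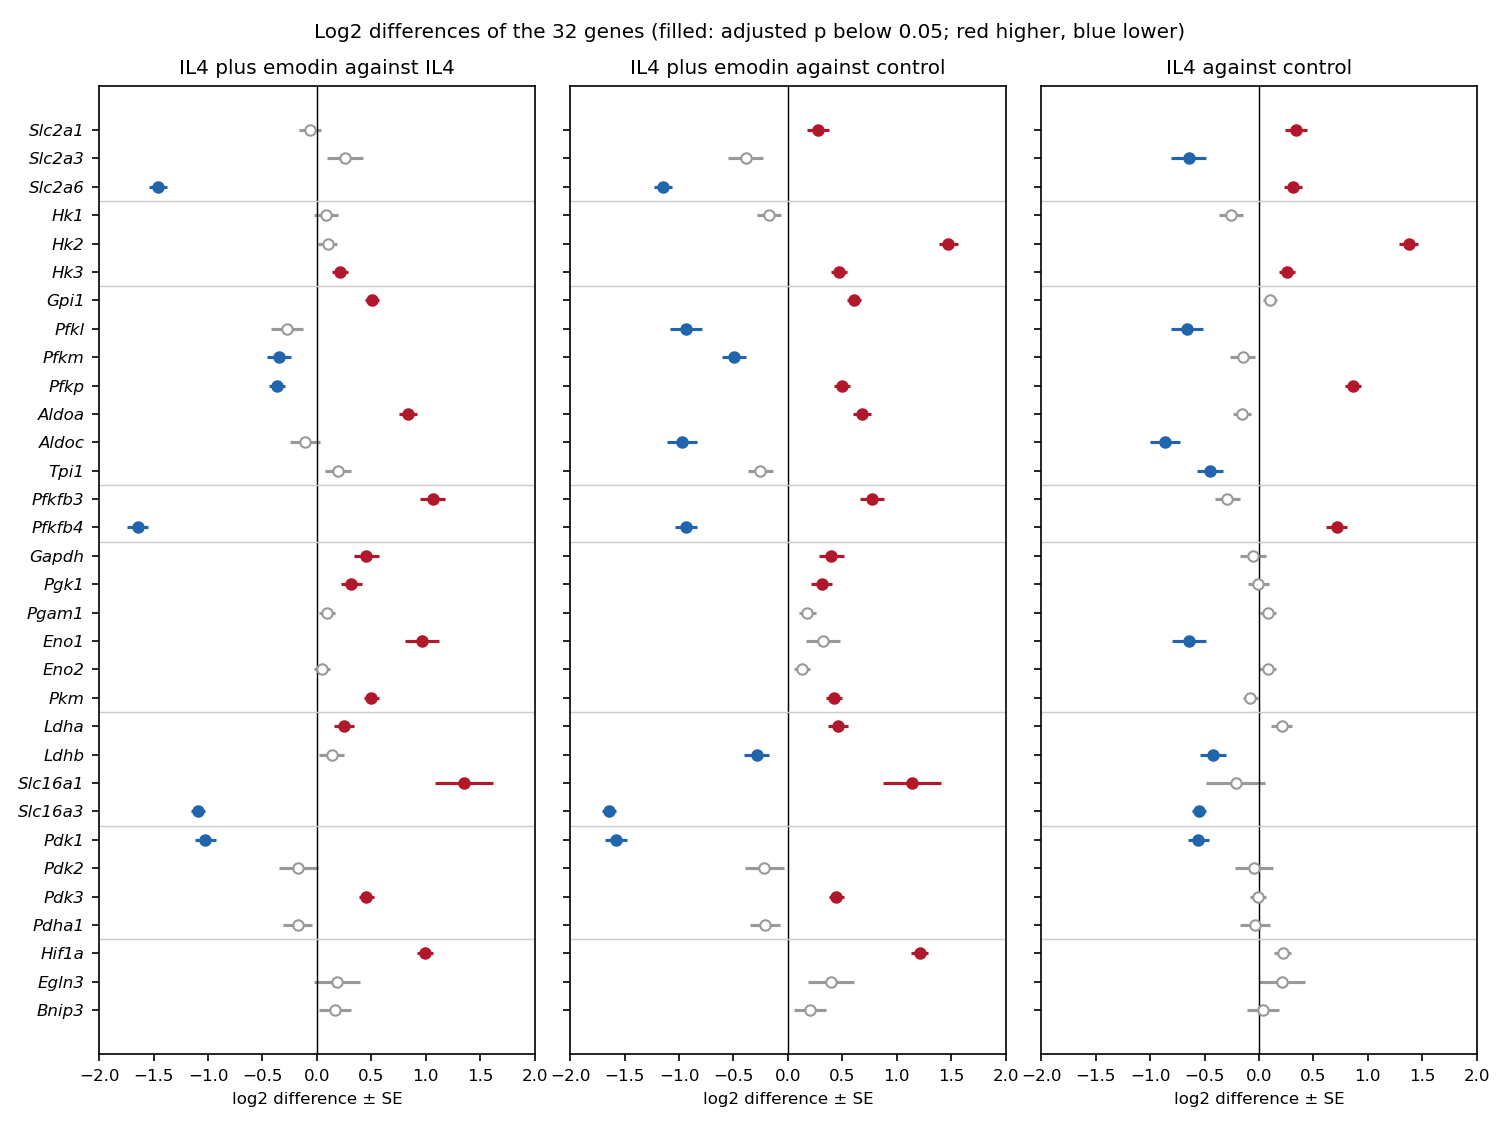
Log2 differences of the 32 genes with their standard errors, as points with bars, for IL4 with emodin against IL4, IL4 with emodin against control and IL4 against control. Grey lines separate the roles from glucose transporters at the top to HIF genes at the bottom, and filled points have a limma adjusted p below 0.05. Slc16a1 and Slc16a3, Pfkfb3 and Pfkfb4, and Pdk1 and Pdk3 lie on opposite sides of 0 in the left panel, while with spike-in scaling all points of that panel would lie 1.08 further left.

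Among glucose transporters, Slc2a6, an intracellular carrier known from lysosomal membranes, had the largest difference between emodin and IL4 arrays. It stood at 3.80, 3.71, 3.93 and 3.68 on the arrays of IL4 with emodin, at 5.38, 5.20, 5.14 and 5.24 on IL4 arrays and at 4.98, 4.79, 5.0 and 4.95 on control arrays. The 3 groups did not overlap, with emodin lowest and IL4 highest. It was 2.75-fold lower with emodin than with IL4 (log2 difference -1.46 ± 0.08 SE, n = 4 per group, limma adjusted p = 4.56e-08), and its log2 difference from control was -1.15. With IL4 it was 0.31 above control (limma adjusted p = 0.0244), a call lost under quantile (limma adjusted p = 0.0610) and spike-in scaling (limma adjusted p = 0.0569). Slc2a1, the widely expressed glucose uptake carrier GLUT1, was at 4.53, 4.89, 4.67 and 4.98 with emodin, at 4.90, 4.85, 4.79 and 4.80 with IL4 and at 4.53, 4.47, 4.62 and 4.35 in control cells. All IL4 arrays lay above all control arrays (difference 0.34 ± 0.10, limma adjusted p = 0.0385, and 0.0506 with the replicate number as a block), and the emodin arrays overlapped the IL4 arrays (-0.07 ± 0.10, limma adjusted p = 0.586). Slc2a3, the high-affinity carrier GLUT3, was lower with IL4 than in control by -0.65 ± 0.16 (limma adjusted p = 0.0173), and its difference between emodin and IL4 was 0.26 (limma adjusted p = 0.185). With the replicate number as a block, that difference between emodin and IL4 was called.

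Of the hexokinases, Hk2 had the large difference between IL4 and control. Hk2, the inducible hexokinase of mitochondrial membranes, was at 3.65, 3.57, 3.36 and 3.48 with emodin, at 3.54, 3.44, 3.36 and 3.32 with IL4 and at 2.18, 1.99, 2.04 and 1.96 in control cells. Both IL4-treated groups lay above every control array and overlapped each other. The rise with IL4 was 2.60-fold (log2 difference 1.38 ± 0.09, limma adjusted p = 5.59e-07). The emodin arrays stood 1.47 above control, and 0.10 ± 0.09 above IL4 (limma adjusted p = 0.328). Under spike-in scaling the emodin arrays were still above control by 0.49 but below IL4, with a difference of -0.98. Hk3, a hexokinase of myeloid cells, was 0.26 higher with IL4 than in control, a call lost under quantile (limma adjusted p = 0.0519) and spike-in scaling (limma adjusted p = 0.117), and 0.21 higher with emodin than with IL4, which became -0.20 under quantile and -0.87 under spike-in scaling. Hk1, the housekeeping form, passed in none of the 3 comparisons.

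The 3 phosphofructokinase subunit genes diverged under IL4. Pfkp, the platelet form, was higher with IL4 by 0.86 ± 0.07 (limma adjusted p = 7.43e-06), and Pfkl, the liver form, lower by -0.66 ± 0.15 (limma adjusted p = 0.00879), a call that spike-in scaling ended at -0.56. The muscle form Pfkm differed by -0.15 (limma adjusted p = 0.420). With emodin, Pfkp and Pfkm were lower than with IL4, by -0.36 and -0.35. For Pfkp a second probe went the other way, at 0.28, and it was the only member whose probes disagreed in sign in this comparison. The mean of both Pfkp probes was -0.04 (limma adjusted p = 0.610), which ends the call.

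The bifunctional enzymes moved apart with emodin. Pfkfb3, the isoform with the strongest kinase activity, was at 3.68, 4.10, 3.53 and 3.96 with emodin, at 2.81, 2.70, 2.74 and 2.78 with IL4 and at 3.15, 2.97, 3.04 and 3.02 in control cells. Every emodin array lay above every array of the other groups, and IL4 arrays lay below control arrays. The rise with emodin against IL4 was 2.09-fold (1.06 ± 0.11, limma adjusted p = 5.78e-06), the difference from control was 0.77, and the difference of IL4 from control was -0.29 (limma adjusted p = 0.102). Pfkfb3 was called lower with IL4 than in control under quantile scaling (-0.33, limma adjusted p = 0.0499). The same call came with the compared groups alone (limma adjusted p = 0.0182). The second Pfkfb3 probe gave 1.76 for emodin against IL4 and -0.54 for IL4 against control. Pfkfb4, a related isoform, was at 3.17, 3.04, 2.90 and 2.89 with emodin, at 4.70, 4.62, 4.71 and 4.55 with IL4 and at 3.98, 3.79, 4.16 and 3.80 in control cells. Here the order of groups was reversed, with IL4 highest and emodin lowest and no overlap between any of them. Pfkfb4 was 3.13-fold lower with emodin than with IL4 (-1.65 ± 0.10, limma adjusted p = 6.49e-08), -0.93 lower than control on the log2 scale, and 0.71 higher with IL4 than in control (limma adjusted p = 0.000357). The second Pfkfb4 probe gave -1.94 for emodin against IL4 and 1.13 for IL4 against control. Under spike-in scaling Pfkfb4 remained lower with emodin, at -2.72, whereas Pfkfb3 was at -0.01 (limma adjusted p = 0.931).

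Of the 11 enzymes from aldolase to lactate dehydrogenase, 6 were called higher on emodin arrays than on IL4 arrays and 0 lower by limma, but most of these calls held only under scaling to the 75th percentile. Aldoa was higher than with IL4 by 0.83 ± 0.08, Eno1 by 0.96 ± 0.16, Pkm (pyruvate kinase) by 0.50, Gapdh by 0.45, Pgk1 (phosphoglycerate kinase) by 0.32 and Ldha, which makes lactate, by 0.25. Gpi1, the isomerase that acts before phosphofructokinase, was higher by 0.51. Under quantile scaling Eno1 alone of these 7 was still called higher, at 0.40, while Gapdh and Ldha were called lower, at -0.27 and -0.44, and Pgam1 (phosphoglycerate mutase), not called in the main values, at -0.48. Under spike-in scaling all 7 were below 0, from -0.83 for Ldha to -0.11 for Eno1.

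Pkm values were 7.22, 7.35, 7.37 and 7.47 with emodin, 6.82, 6.85, 6.91 and 6.83 with IL4 and 6.87, 6.91, 7.01 and 6.94 in control cells. The emodin arrays lay above all others and IL4 arrays overlapped control arrays. Ldha values were 9.11, 9.11, 9.31 and 9.01 with emodin, 8.87, 8.97, 8.96 and 8.74 with IL4 and 8.53, 8.78, 8.80 and 8.59 in control cells. For Ldha the emodin arrays lay just above the IL4 arrays (0.25 ± 0.09, limma adjusted p = 0.0334), and leaving out any of 4 single arrays ended that call. For IL4 against control the Ldha difference was 0.21 (limma adjusted p = 0.159, and 0.0412 with the replicate number as a block). Ldhb, the heart-type lactate dehydrogenase, was -0.42 lower with IL4 than in control (limma adjusted p = 0.0276).

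These bright probes shared their shift with other bright probes. Among the 1720 genes whose mean over the 12 arrays exceeded 6, the median difference between emodin and IL4 was 0.61, and 76.0% were called higher and 6.74% lower. The 10 members at that level had a median of 0.39, and 8 of them were called higher. Between IL4 and control the same 1720 genes had a median of -0.06, with 5.81% called higher and 4.59% lower. Of the 10 members there, Hk3 was called higher and Eno1 and Tpi1 (triose phosphate isomerase) lower, by -0.64 and -0.45. Aldoc, the brain-type aldolase with a mean below 6, was lower with IL4 by -0.86 ± 0.14 (limma adjusted p = 0.000997), and its difference between emodin and IL4 was -0.11 (limma adjusted p = 0.507).

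**Figure D2:**
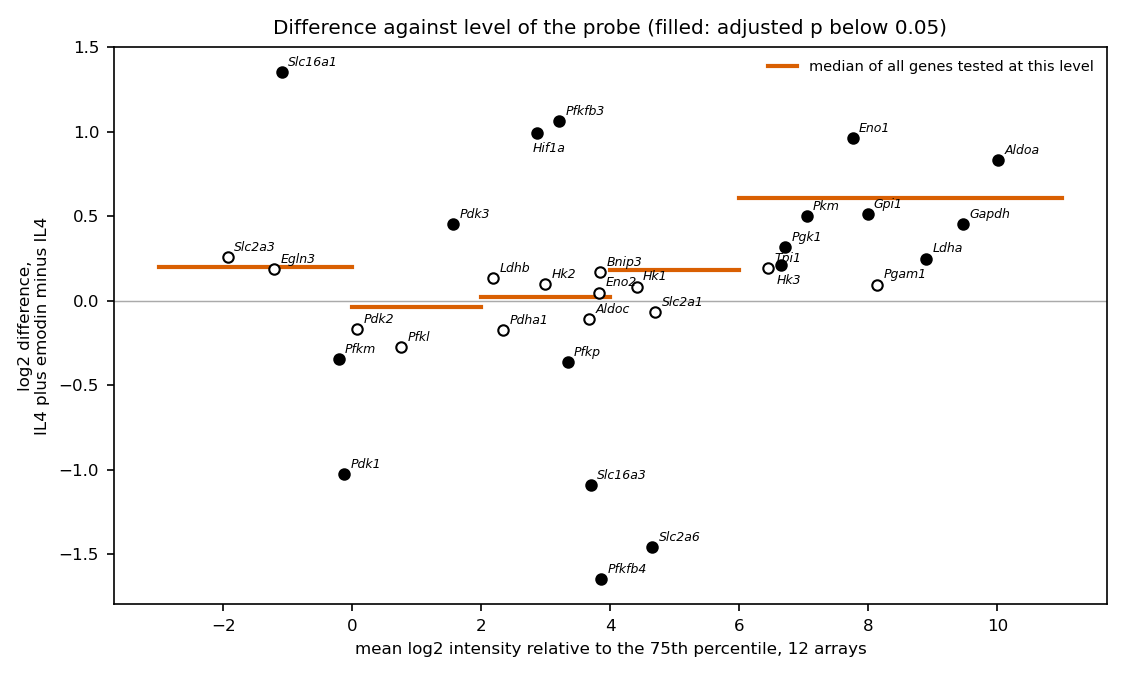
Log2 difference of IL4 with emodin minus IL4, under 75th percentile scaling, against the mean level of the gene's probe on the 12 arrays, with 1 point per member, filled where the limma adjusted p is below 0.05. Orange lines give the median of all genes tested in 5 ranges of level, the outer 2 drawn only as far as the panel shows. Of the 10 members above a level of 6, Eno1 and Aldoa lie above the orange line at 0.61, and under spike-in scaling every point would lie 1.08 lower.

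The lactate transporters also moved apart. Slc16a1, which encodes MCT1, a carrier that moves lactate in both directions, was at -0.44, 0.74, -0.87 and -0.47 with emodin, at -1.47, -1.48, -1.75 and -1.76 with IL4 and at -1.18, -1.52, -1.53 and -1.36 in control cells. All emodin arrays were highest, and replicate 2 of that group stood above its companions. The rise against IL4 was 2.55-fold (1.35 ± 0.27, limma adjusted p = 0.000844), and 1.02 without that replicate. It was 1.30 under quantile scaling and 0.28 under spike-in scaling (limma adjusted p = 0.336). Slc16a3, which encodes MCT4, the main lactate exporter of glycolytic cells, was at 2.79, 2.73, 2.75 and 2.87 with emodin, at 3.85, 3.89, 3.88 and 3.89 with IL4 and at 4.36, 4.44, 4.39 and 4.54 in control cells. The groups stepped down without overlap, with control highest and emodin lowest. Slc16a3 fell 2.13-fold with emodin against IL4 (-1.09 ± 0.07, limma adjusted p = 5.97e-08), by a log2 difference of -0.55 with IL4 against control, and 3.13-fold with emodin against control (-1.65, limma adjusted p = 2.83e-09).

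At the entry to mitochondrial oxidation, Pdk1, a kinase that inhibits pyruvate dehydrogenase, was at -1.12, -1.13, -0.84 and -0.88 with emodin, at 0.02, -0.00, 0.11 and -0.01 with IL4 and at 0.53, 0.68, 0.75 and 0.39 in control cells. Like Slc16a3 it was lowest with emodin and highest in control cells, with no overlap. It fell 2.03-fold with emodin against IL4 (-1.02 ± 0.10, limma adjusted p = 2.76e-06) and by -0.56 with IL4 against control (limma adjusted p = 0.00195). Pdk3, another kinase of the family, was higher with emodin than with IL4 by 0.45 (0.48 under quantile and -0.62 under spike-in scaling). Pdk2 differed by -0.17 (limma adjusted p = 0.415), and was called lower, at -0.38, without replicate 3 of IL4 with emodin (limma adjusted p = 0.00783). Pdha1, the catalytic subunit of the dehydrogenase, differed by -0.18 (limma adjusted p = 0.265).

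Hif1a was at 3.54, 3.73, 3.60 and 3.51 with emodin, at 2.58, 2.56, 2.62 and 2.66 with IL4 and at 2.29, 2.50, 2.44 and 2.31 in control cells. The emodin arrays lay above all others, and the IL4 arrays above the control arrays. The rise with emodin against IL4 was 1.99-fold (0.99 ± 0.08, limma adjusted p = 4.24e-07) and 2.31-fold against control. It was 0.96 against IL4 under quantile scaling and -0.09 under spike-in scaling (limma adjusted p = 0.538). For IL4 against control the Hif1a difference was 0.22 (limma adjusted p = 0.0703, and 0.0443 with the replicate number as a block). Egln3, a prolyl hydroxylase induced by HIF, and Bnip3, a mitophagy receptor induced by HIF, passed in no comparison of the 3 group means, with differences between emodin and IL4 of 0.19 and 0.17. With a replicate block Egln3 was called higher with emodin than in control (0.40, limma adjusted p = 0.00325).

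**Figure D3:**
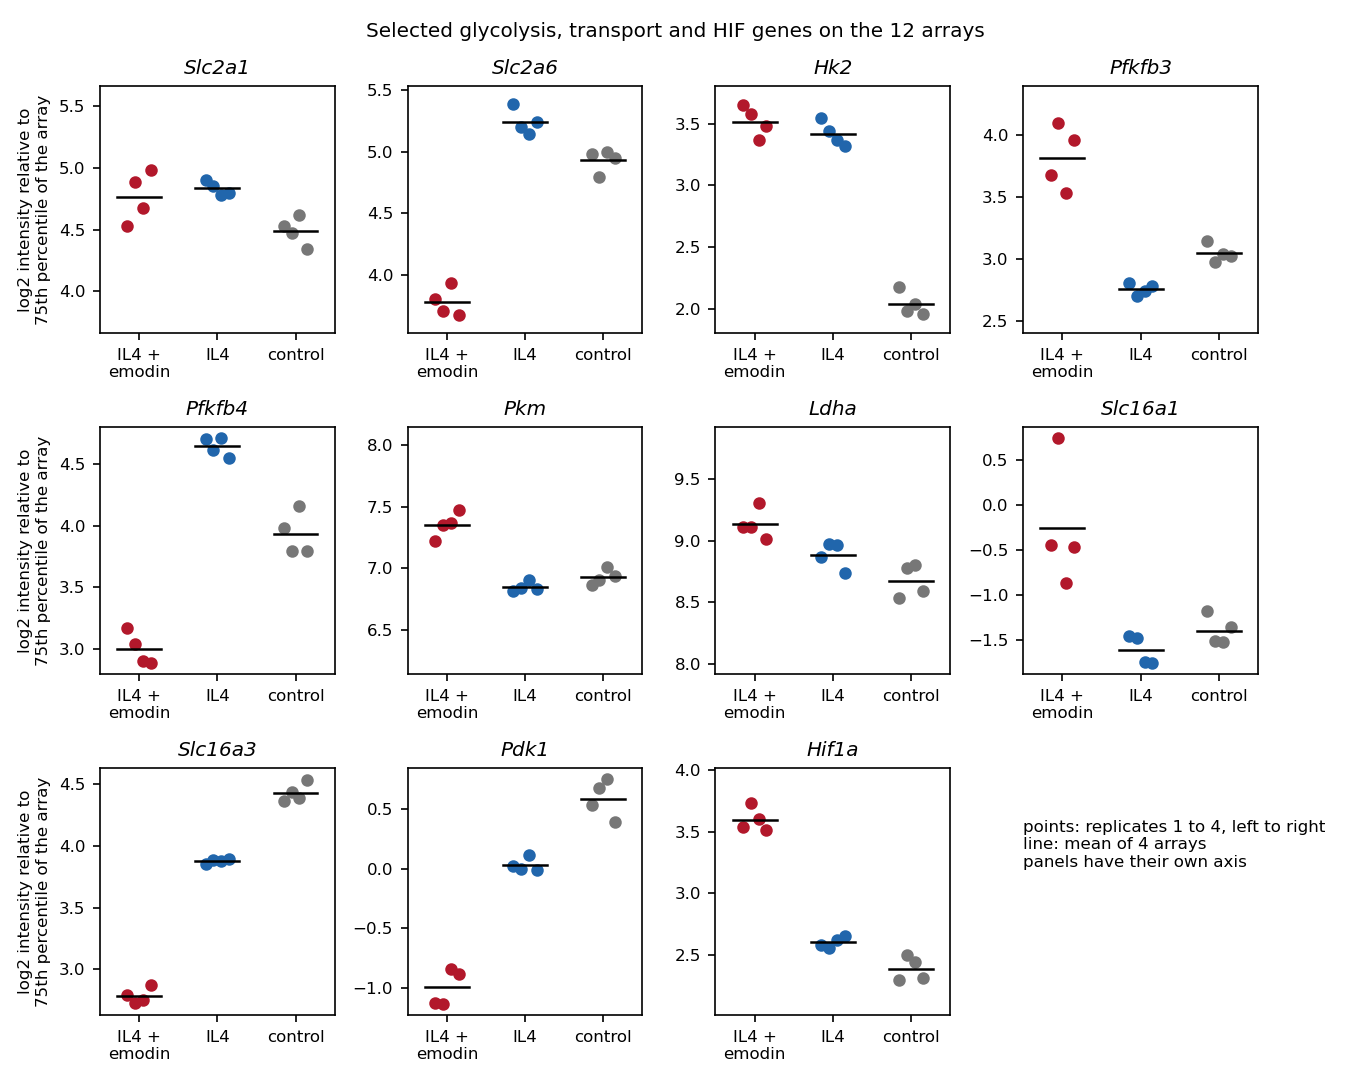
Log2 intensity minus each array's 75th percentile for 11 of the genes, 1 point per array and a line at the mean of the 4 arrays, with IL4 with emodin, IL4 and control from left to right. Slc2a6, Pfkfb4, Slc16a3 and Pdk1 are lowest on all 4 emodin arrays, Pfkfb3, Slc16a1, Pkm, Ldha and Hif1a are highest there under this scaling but not relative to spike-in RNA, and Hk2 is high in both IL4-treated groups.

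Sequences before RefSeq starts of the genes with the widest called changes between emodin and IL4 are shown because the HIF core motif, ACGTG or GCGTG, can be read in them. Slc16a1 and Pfkfb3 were the largest rises and Pfkfb4 and Slc2a6 the largest falls. Each run is the 250 bases before a RefSeq start in GRCm38.p6, written 5′ to 3′ on the gene's strand, with capitals marking the motif on either strand, where CACGC and CACGT are the motif read on the other strand. The Pfkfb4 run lies before a start inside the gene, whose span begins at chr9:108988272. Most of the Pfkfb3 run also lies inside its gene, whose span ends at chr2:11554071.
Slc16a1, chr3:104638414-104638663, plus strand: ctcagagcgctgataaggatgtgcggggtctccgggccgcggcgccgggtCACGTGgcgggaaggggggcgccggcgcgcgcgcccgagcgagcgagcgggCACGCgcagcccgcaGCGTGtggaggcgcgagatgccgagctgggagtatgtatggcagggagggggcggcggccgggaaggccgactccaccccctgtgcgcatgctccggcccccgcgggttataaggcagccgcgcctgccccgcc
Pfkfb3, chr2:11553930-11554179, minus strand: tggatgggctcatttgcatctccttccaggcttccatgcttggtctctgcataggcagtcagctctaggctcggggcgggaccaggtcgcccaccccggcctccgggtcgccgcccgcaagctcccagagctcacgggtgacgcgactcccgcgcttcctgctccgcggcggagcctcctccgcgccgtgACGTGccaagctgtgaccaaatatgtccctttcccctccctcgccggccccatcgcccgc
Pfkfb4, chr9:108991652-108991901, plus strand: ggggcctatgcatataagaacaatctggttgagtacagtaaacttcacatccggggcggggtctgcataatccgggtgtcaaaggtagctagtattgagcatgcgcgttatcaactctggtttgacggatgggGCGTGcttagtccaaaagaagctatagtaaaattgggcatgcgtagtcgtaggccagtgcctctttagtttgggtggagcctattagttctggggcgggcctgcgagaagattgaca
Slc2a6, chr2:27027999-27028248, minus strand: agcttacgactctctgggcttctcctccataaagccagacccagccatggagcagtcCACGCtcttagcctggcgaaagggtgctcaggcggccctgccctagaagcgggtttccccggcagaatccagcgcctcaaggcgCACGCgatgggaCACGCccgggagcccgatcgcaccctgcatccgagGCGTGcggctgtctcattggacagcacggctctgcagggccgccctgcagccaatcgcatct
Slc16a1 held ACGTG 2 times, as both strands of the palindrome CACGTG, and GCGTG 2 times. Pfkfb3 held ACGTG 1 time, Pfkfb4 held GCGTG 1 time, and Slc2a6 held GCGTG 4 times. Genes that rose and genes that fell both carried matches. Over all 32851 promoter entries, 38.6% held either motif in windows of this length (16.6% ACGTG and 28.2% GCGTG). Of the 45 entries that matched 31 of the members, 36 held either motif (80%), with ACGTG in 20 and GCGTG in 23. A match is a description of these letters and not evidence of binding, and entries of the same gene can overlap.

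Ratios between relatives on the same array do not depend on the scaling to the 75th percentile or to spike-in RNA, but they keep any shift that differs with the level of the probes. The 17 pairs within families were compared in the 3 comparisons, which made 51 exact two-sided permutation tests of 4 arrays against 4. These tests took the arrays as unpaired, although same-numbered arrays of IL4 and control deviated together, so their p-values leave the replicate numbers out. The smallest p these allow is 0.0286, which became 0.0394 after Benjamini-Hochberg adjustment, and every pair called here has that value. The pairs were chosen after the data were seen. A call here means that the ratios of the 4 and 4 arrays did not overlap. Between emodin and IL4, 9 pairs were called, and 5 of them changed by 1 or more on the log2 scale. Of all single genes, 60.4% did not overlap in that comparison, and the share for other pairs of genes was not computed.

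The ratio of Pfkfb3 to Pfkfb4 was higher with emodin than with IL4 by 2.71, a 6.54-fold unequal change (exact permutation p = 0.0286). On the log2 scale it averaged 0.82 ± 0.29 with emodin, -1.89 ± 0.09 with IL4 and -0.89 ± 0.16 in control cells (SD, n = 4 each). The ratio of Slc16a1 to Slc16a3 was higher with emodin by 2.45, and by 2.09 to 2.64 with single arrays left out. The ratio of Pdk1 to Pdk3 was lower by -1.48. Against Slc2a6, both Slc2a1 and Slc2a3 gained, by 1.39 and 1.72. All these pairs kept their call under quantile scaling, normexp background correction, the deposited value table and the mean of all probes. The ratio of Aldoa to Aldoc rose by 0.94 and that of Eno1 to Eno2, the neuronal enolase, by 0.91, and both lost their call under quantile scaling, at 0.27 and 0.43. Both pairs set a gene with a mean level above 6 against a gene at 2 to 4. Over all genes, the median differences between emodin and IL4 at these levels were 0.61 and 0.02.

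Between IL4 and control, 14 pairs were called, 5 of them at 1 or more, where 24.9% of all single genes did not overlap. Hk1 lost 1.63 to Hk2 (change of the ratio -1.63), and Hk2 gained 1.12 on Hk3. Pfkl and Pfkm lost to Pfkp, with changes of -1.52 and -1.01, and the ratio of Pfkfb3 to Pfkfb4 changed by -1.0. The ratio of Hk1 to Hk2 changed by -0.01 between emodin and IL4 (exact permutation p = 0.943), and that of Pfkl to Pfkp by 0.09 (exact permutation p = 0.571). With emodin against control 14 pairs were called, 9 at 1 or more, led by Slc16a1 to Slc16a3 at 2.79, where 54.3% of all single genes did not overlap.

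**Figure D4:**
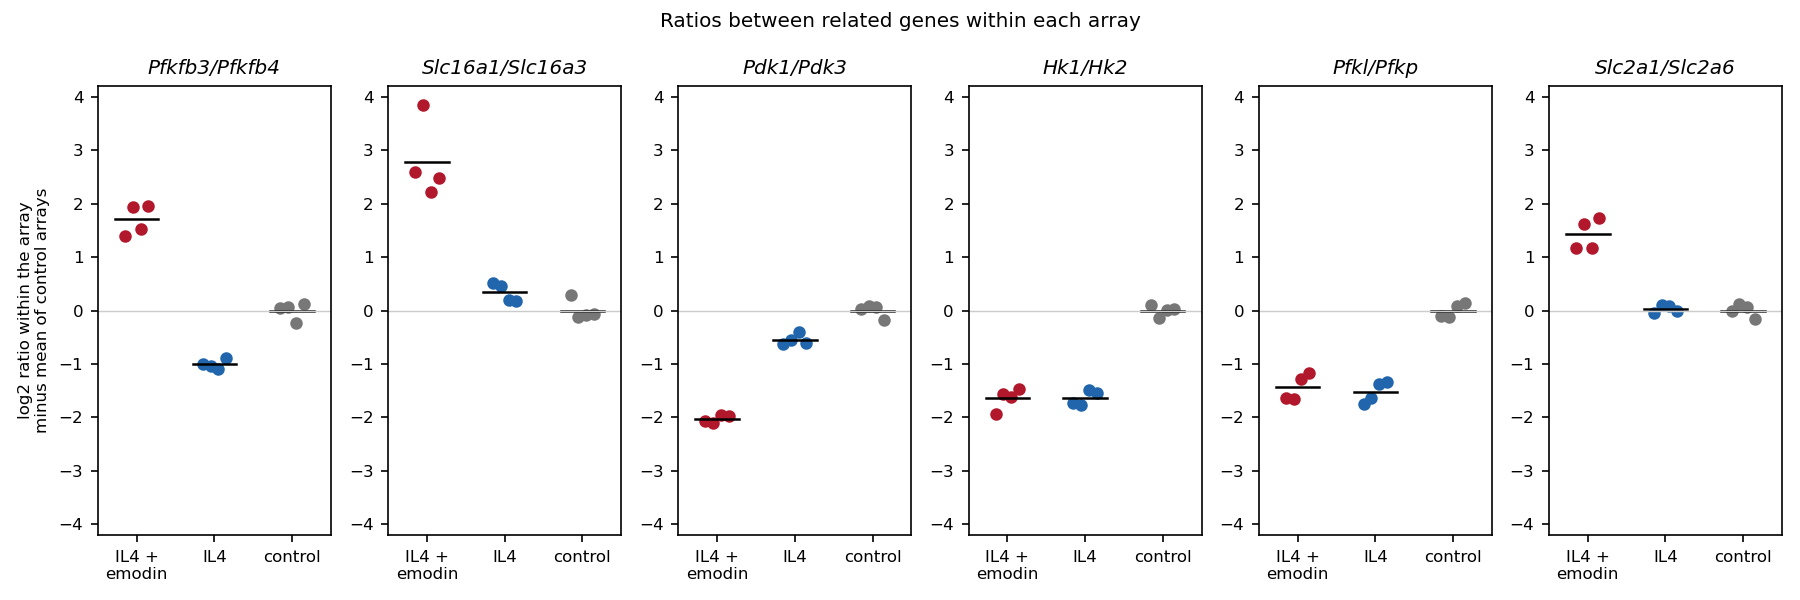
Log2 ratio of 6 pairs of related genes within each array, after subtraction of the mean ratio of the control arrays, 1 point per array and a line at the mean of 4, with IL4 with emodin, IL4 and control from left to right. The first 3 pairs and Slc2a1 to Slc2a6 separate emodin arrays from IL4 arrays, whereas for Hk1 to Hk2 and Pfkl to Pfkp both IL4-treated groups overlap and lie below control.

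Under the 3 scalings, 6 members were called lower with emodin than with IL4 each time (Pdk1, Pfkfb4, Pfkm, Slc16a3, Slc2a6 and, on its brighter probe alone, Pfkp), and 0 were called higher each time by limma. Quantile scaling called 5 higher (Slc16a1, Pfkfb3, Hif1a, Pdk3 and Eno1) and 9 lower, beside 29.4% and 30.9% of all genes, and spike-in scaling 0 higher and 27 lower, beside 3.53% and 80.5%. The median of all genes was 0.17, 0.02 and -0.91 under the 75th percentile, quantile and spike-in scaling. For IL4 against control the same 4 members were called higher (Hk2, Pfkfb4, Pfkp and Slc2a1) and the same 4 lower (Aldoc, Eno1, Pdk1 and Slc16a3) under all 3 scalings. The Slc2a1 call was lost with normexp background correction (0.27, limma adjusted p = 0.0995). Leaving out any single IL4 array, or control replicate 1, 2 or 4, also ended it. Against control, Hk2 was the only member called higher with emodin each time, and 8 were called lower each time. Of those 8, Ldhb lost its call under 75th percentile scaling when most single arrays were left out. These were any IL4 array, control replicate 1, 2 or 4, and emodin replicate 1, 2 or 3.

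**Figure D5:**
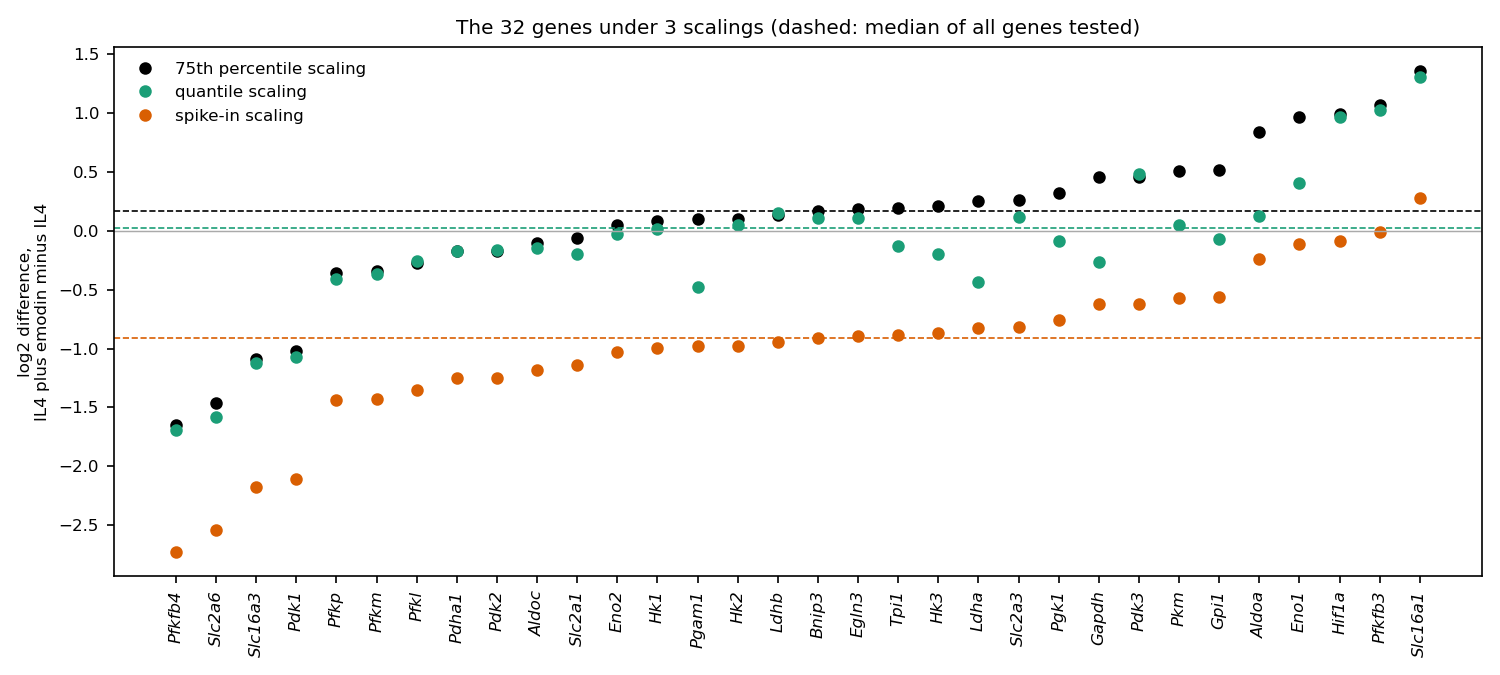
Log2 difference of IL4 with emodin minus IL4 for each of the 32 genes under scaling to the 75th percentile, quantile scaling and scaling to spike-in RNA, ordered by the first. Dashed lines give the median of all genes tested under each scaling, 0.17, 0.02 and -0.91, and the 4 genes at the left lie below 0 under all 3 while every gene except Slc16a1 lies below 0 with spike-in scaling.

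Neighbouring pathways were read from lists chosen with earlier results of these data known. Among 14 other HIF target genes, 6 were called higher and 4 lower with emodin than with IL4, where 39.4% of all genes were higher and 26.5% lower. The shares of these lists called in either direction are to be read against that background of 65.9%, and against 17.5% for IL4 against control. The angiogenic factor Vegfa and the mTOR inhibitor Ddit4 were higher by 2.07 and 2.05, the stress gene Ndrg1 by 0.97, and the mitochondrial adenylate kinase Ak4 was lower by -3.25 ± 0.22 (limma adjusted p = 1.54e-07). With IL4 alone, Ak4 was higher than in control by 1.88 and Vegfa lower by -0.68. Of 7 HIF regulators, 1 was higher and 3 were lower with emodin than with IL4, the lower ones being the prolyl hydroxylases Egln1 (-1.12) and Egln2 (-0.61) and the ubiquitin ligase subunit Vhl (-0.56). Epas1, which encodes the HIF2 alpha subunit, was higher by 0.41 in a fit that lacked 1 IL4 array for this gene.

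Of 22 other genes of glycolysis and glycogen, 8 were higher and 9 lower with emodin than with IL4. Bpgm, which makes 2,3-bisphosphoglycerate, was lower by -1.87, and Tigar, a fructose-2,6-bisphosphatase, by -1.75. Ugp2, which makes UDP-glucose, was higher by 1.24 and the muscle enolase Eno3 by 1.09. With IL4 alone, Gpd1, glycerol-3-phosphate dehydrogenase, was higher than in control by 1.86 and the insulin-responsive glucose carrier Slc2a4 by 1.13. Among 9 genes of mitochondrial pyruvate entry and oxidation, 4 were higher and 4 lower with emodin than with IL4, and 0 were called by limma in either direction with IL4 against control. The phosphatase subunit Pdp2 was lower by -0.97 and the acetyltransferase Dlat by -0.96, and the pyruvate carrier subunit Mpc1 was higher by 0.88. Of 7 pentose phosphate genes, 3 were higher and 1 lower with emodin than with IL4, with transaldolase Taldo1 at 0.68, and with IL4 against control G6pdx, the entry enzyme, was lower by -0.52. The median differences between emodin and IL4 were 0.21 for the HIF targets, -0.21 for the HIF regulators, -0.18 for the other glycolysis and glycogen genes, 0.26 for mitochondrial pyruvate genes and -0.13 for pentose phosphate genes, beside 0.17 for all genes. These rises too are relative to the 75th percentile, and spike-in scaling moves each emodin value by the shift given above.

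No difference between male and female arrays was called for any member (limma, smallest adjusted p = 0.196, 2 arrays per sex and group), with differences of -0.40 to 0.48. The male effect minus the female effect was called for 0 members in each of the 3 comparisons. Over all 20862 genes 0 were called for sex, with 1931 at an unadjusted p below 0.05, and 0 for the difference of effects, with 272, 507 and 434 at that unadjusted level for IL4 against control, emodin against IL4 and emodin against control. The filter kept a probe only where every array of some group was well above background, and each group held female and male arrays. Genes well above background on female arrays alone or on male arrays alone were therefore not among those tested. The counts of 0 cover only the genes kept, and they do not check the sex given for the arrays. Sex coincided with the columns of the slides, so position and sex cannot be told apart.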

How the data were processed

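The scanner files give the intensity of each spot after background subtraction by Agilent Feature Extraction (version 10.7.3.1), per the file headers and the submitters' processing notes. Values on a log2 scale make up the deposited series table, which recomputation from the scanner files showed to have been quantile-normalized and centred on each probe's median over the 12 arrays. The medians of its columns ran from -0.0078 to 0.014, and it served as an alternative. Control spots and spots marked as outliers were left out, spots of a probe were averaged, and the main value was log2 intensity minus the array's 75th percentile. Of 55681 probes, 27509 matched a single symbol among RefSeq genes of GRCm38.p6 and 28172 matched none. A probe was kept where some group had it well above background on each of its 4 arrays (27705 probes), and each gene was represented by its brightest probe. The 32 members had 52 probes, all kept, and 12 members had several.

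The 3 group means over 12 arrays (9 residual degrees of freedom) went into a fit by limma (version 3.58.1, R 4.3.3, tables handled by data.table, version 1.17.8), moderated two-sided tests being adjusted by Benjamini-Hochberg over 20862 genes at a threshold of 0.05. Simulated data with known changes were used to test the fit. Figures used Python 3.11.15 with pandas 2.3.3 and matplotlib 3.10.9. Groups and replicate numbers came from the sample titles. Same-numbered arrays of IL4 and control deviated together (correlations 0.31 to 0.52 across genes), so the numbers were taken to pair them, and the blocked value is given beside that comparison's results where it changes a call. Member calls that the block changed in the 2 emodin comparisons are listed in the closing section. Alternatives were quantile and spike-in scaling, normexp background correction with offset 50 on the median spot signal, the deposited table, no filter on dim probes, the mean of a gene's probes, the compared groups alone, the replicate block, sex as a covariate and each array left out. The members and lists were chosen with earlier results of these data known. Values on every array are given for members called with a log2 difference of 1 or more in any comparison and for Hif1a, Slc2a1, Hk2, Pfkfb3, Ldha and Pkm, and up to 4 called genes are named from each other list. With 4 arrays in each group, their number sets the precision. The summed level of 1 marker list is not reported here.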

Additional observations from a re-analysis of the deposited data

Results flagged for a closer look

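Each group of 4 arrays was examined for a single array far from the other 3, its gap to the nearest being divided by the range of the group. Of 96 such groups of the 32 genes, 3 exceeded Dixon's critical value, where chance alone would give about 4.8, or 1 in 20. For Tpi1, triose phosphate isomerase, replicate 1 of IL4 was at 6.08 and its companions at 6.28 to 6.31, a gap of 0.862 of the range. For Eno2, neuronal enolase, replicate 1 of IL4 was at 3.89 and its companions at 3.82 to 3.83, a gap of 0.878 of a narrow range. For Pdk2, a pyruvate dehydrogenase kinase, replicate 3 of IL4 with emodin was at 0.58 and its companions at -0.34 to -0.20, a gap of 0.857 of the range.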

How the results depend on the processing

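Leaving out single arrays left 6 to 7 members called lower and 10 to 12 higher between emodin and IL4 (5189 to 5634 and 7627 to 8300 of all genes), 7 to 9 and 13 to 16 between emodin and control (4999 to 5284 and 7271 to 7747), and 6 to 8 and 3 to 6 between IL4 and control (1310 to 1844 and 1485 to 1931). The weakest calls of IL4 against control, for Slc2a1, Hk3, Tpi1, Ldhb, Slc2a6 and Slc2a3, were each lost without some array. With the replicate number as a block, Hif1a (limma adjusted p = 0.0443) and Ldha (0.0412) were gained and Slc2a1 (0.0506) was lost for IL4 against control. Same-numbered emodin arrays deviated together less evenly (correlations 0.09 to 0.44 with IL4, each array best with its own number, and 0.06 to 0.51 with control, 3 of 4 with their own), and the block added 3 member calls against IL4 (Pfkl, Tpi1 and Slc2a3) and 5 against control (Tpi1, Pgam1, Eno1, Slc2a3 and Egln3) and ended none. Sex as a covariate, the compared groups alone, the mean of all probes and normexp moved at most 4 member calls per comparison and reversed none. Between emodin and IL4, quantile scaling and the deposited table each called 5 members higher, and spike-in scaling 0 higher and 27 lower (all genes 736 higher, 16803 lower). Against control the counts were 6 higher and 13 lower with quantile scaling and with the table, and 1 and 27 with spike-in scaling (all genes 838 and 16094). For IL4 against control, spike-in scaling called 4 members lower, and all genes called lower were 713 with spike-in scaling, 3024 with normexp and 5396 with no filter on dim probes. With no filter, 17157 genes were called higher between emodin and IL4 and 14498 against control. The log2 differences that changed sign between emodin and IL4 were, with spike-in scaling, Hk1 -0.99, Hk2 -0.98, Hk3 -0.87, Gpi1 -0.57, Pfkfb3 -0.014, Aldoa -0.24, Tpi1 -0.88, Gapdh -0.62, Pgk1 -0.76, Pgam1 -0.98, Eno1 -0.11, Eno2 -1.03, Pkm -0.58, Ldha -0.83, Ldhb -0.94, Slc2a3 -0.82, Pdk3 -0.62, Hif1a -0.086, Egln3 -0.89, Bnip3 -0.91. With quantile scaling they were Hk3 -0.20, Gpi1 -0.072, Gapdh -0.27, Pgk1 -0.091, Pgam1 -0.48, Ldha -0.44, and with the deposited table Hk3 -0.21, Gpi1 -0.078, Gapdh -0.27, Pgk1 -0.10, Pgam1 -0.49, Ldha -0.44. Against control they were, with spike-in scaling, Hk3 -0.51, Gpi1 -0.37, Pfkp -0.48, Pfkfb3 -0.21, Aldoa -0.30, Gapdh -0.58, Pgk1 -0.67, Pgam1 -0.80, Eno1 -0.66, Eno2 -0.86, Pkm -0.56, Ldha -0.52, Slc2a1 -0.71, Pdk3 -0.54, Egln3 -0.58, Bnip3 -0.78. With quantile scaling they were Aldoa -0.055, Gapdh -0.31, Pgk1 -0.074, Pgam1 -0.36, Ldha -0.19, and with the table Aldoa -0.055, Gapdh -0.31, Pgk1 -0.083, Pgam1 -0.36, Pkm -0.0065, Ldha -0.19. The ratio of Ldha to Ldhb between emodin and IL4, not called in the main values, changed by -0.58 with quantile scaling and -0.59 with the table. The cause of these changes was not tested. The probe used for each member was well above background on all 12 arrays, and the unsettled scale between slides limits the directions given for emodin arrays.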
